A study of Mus musculus with 7 samples.

Results

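Neurexins, neuroligins and LRRTM proteins are adhesion molecules that join the presynaptic and postsynaptic sides of a synapse. The genes described here are Nrxn2 and Nrxn3, Nlgn1, Nlgn2 and Nlgn3, and Lrrtm1, Lrrtm2, Lrrtm3 and Lrrtm4. They were chosen by symbol and make up 9 of the 22248 genes measured. They account for 65 of the 102392 transcripts measured, of which 50 had counts in at least 1 library.

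Messenger RNA was sequenced from hippocampal synaptoneurosomes, a fraction of pinched-off nerve endings with attached postsynaptic pieces, of wild-type female C57Bl/6J mice. One group received AM6545, an antagonist of the CB1 cannabinoid receptor that enters the brain poorly, in a sub-chronic regimen (4 libraries, replicates B, D, E and F). The other received vehicle (3 libraries, replicates B, D and E). The labels give no age, dose or duration, and no number of animals behind a library. The labels do not say that libraries came from separate animals, so p-values measure only the spread between these libraries, which may be technical. The question addressed is whether the mRNAs of these adhesion genes, and the forms they take, differed between the treatments.

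Neurexins sit in the presynaptic membrane. Each neurexin gene makes a long alpha form and, from an internal promoter, a short beta form. Alternative cassette exons then change which partners either form binds. Neuroligins and LRRTMs are postsynaptic ligands of neurexins. Nlgn1 is known for excitatory synapses, Nlgn2 for inhibitory synapses and Nlgn3 for both, and the LRRTMs are leucine-rich repeat proteins of excitatory synapses. In hippocampal neurons both families help to recruit neurotransmitter receptors to the contact.

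The cassette exons that set partner choice are shown first, because the transcript results below are counted over them. Sequences and coordinates are from GENCODE release M21 on GRCm38, and each reads 5′ to 3′ along the transcript. The 90-base exon of Nrxn3 is the insert known as splice site 4. Its presence weakens binding to LRRTMs and favours the secreted cerebellins. It lies at chr12:90199147-90199236 (plus strand) in Nrxn3 and is shown whole in capitals.
Nrxn3 90-base exon: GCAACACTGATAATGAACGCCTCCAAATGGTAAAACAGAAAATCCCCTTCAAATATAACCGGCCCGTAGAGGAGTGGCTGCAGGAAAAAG

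Neuroligins carry inserts at a position known as site A. Nlgn1 has 1 such exon of 60 bases at chr3:25920178-25920237 (minus strand). Nlgn3 has a pair of them, the first at chrX:101303072-101303131 and the second at chrX:101307075-101307134 (both plus strand). Capitals in the first pair of lines mark bases shared by the Nlgn1 exon and the second Nlgn3 exon, 43 of 60 (71.7%). Capitals in the last line mark bases that the first Nlgn3 exon shares with the second, 19 of 60 (31.7%).
Nlgn1 60-base exon: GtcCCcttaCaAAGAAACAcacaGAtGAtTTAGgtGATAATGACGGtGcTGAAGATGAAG
Nlgn3 second 60-base exon: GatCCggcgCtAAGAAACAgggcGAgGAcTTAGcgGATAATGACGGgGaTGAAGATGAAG
Nlgn3 first 60-base exon: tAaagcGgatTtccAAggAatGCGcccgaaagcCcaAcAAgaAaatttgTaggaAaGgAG

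Nlgn1 also has a short insert at site B, which lowers binding to alpha neurexins. In the annotation it is a 27-base extension of a coding exon at chr3:25439865-25439891 (minus strand), shown whole in capitals. The annotated transcripts that hold it, Nlgn1-201 and Nlgn1-205, are the same ones that hold the 60-base exon. The shares of the 2 inserts therefore cannot be told apart in these counts.
Nlgn1 27-base extension: GTAACCGTTGGAGCAATTCAACCAAAG

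Library totals ran from 19174649 to 25894733 estimated counts, and the adhesion genes held 12562 to 21653 of them per library. Vehicle replicate B stood apart. Mitochondrially encoded genes took 9.83% of its counts against 5.07 to 6.66% in the other libraries, and its counts leaned furthest towards GC-rich genes. Libraries of the 2 groups leaned in opposite directions with GC content. The log2 count of a gene changed by -0.12 to -0.03 per 10 percentage points of GC in the AM6545 libraries and by 0.05 to 0.13 in the vehicle libraries, relative to the mean of all libraries. Fold changes were therefore also computed with a correction of every library for GC content and transcript length, and both values are given for the adhesion genes and the transcripts and partners named.

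No adhesion gene passed the threshold, an adjusted p under 0.05 in edgeR's quasi-likelihood test, in the comparison of AM6545 with vehicle. DESeq2 and limma-voom also called 0 of the 9, and 0.00682% of all genes tested were called by edgeR. At an unadjusted edgeR p under 0.05 there were 2 of 9 genes, Nrxn2 and Nlgn2, both lower after AM6545. Of all genes tested, 8.7% were lower at that level and 14.6% differed in either direction. For 1 of the 9 genes, Nrxn2, the groups did not overlap, against 13.8% of all genes. With so few genes, these counts are not read as a result about the group.

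**Figure D1:**
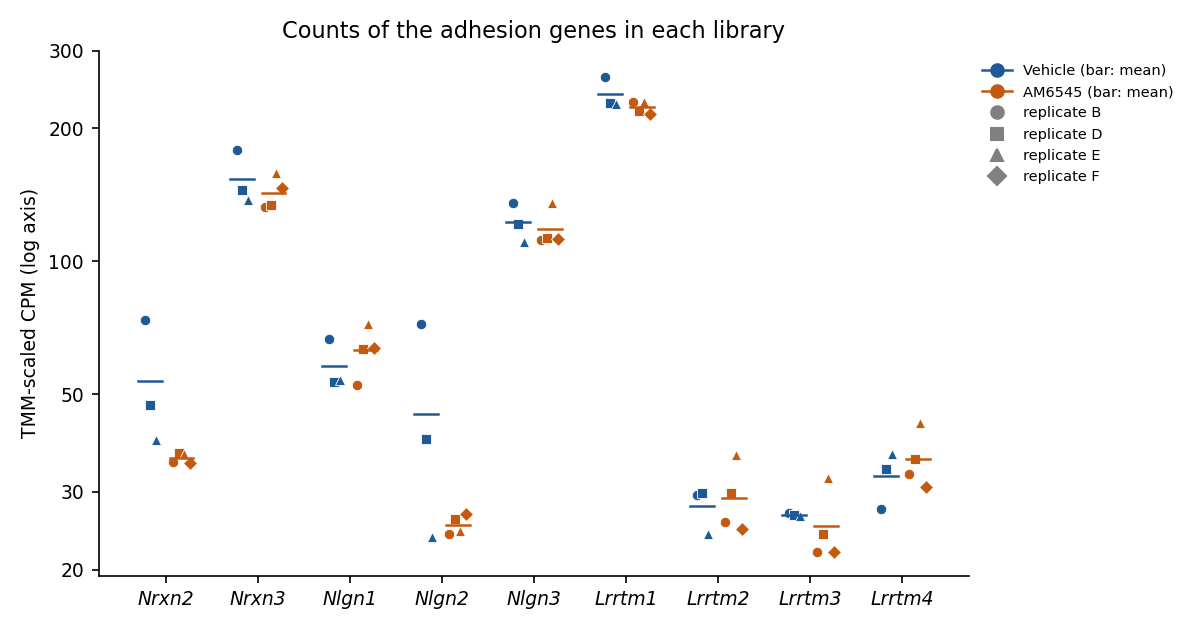
TMM-scaled CPM (counts per 1000000 of the effective library size, log axis) of the 9 adhesion genes, with 1 point per library, marker shapes for the replicate letters and bars at the group means. Vehicle replicate B is highest for Nrxn2 at 73.6 and for Nlgn2 at 71.9, and the AM6545 libraries lie close together for both genes.

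On the presynaptic side, Nrxn2 (ENSMUSG00000033768.18, chr19:6418731-6544169, plus strand) had the lower counts after AM6545. Its TMM-scaled CPM was 35.04, 36.8, 36.6 and 34.9 in AM6545 replicates B, D, E and F, and 73.6, 47.2 and 39.4 in vehicle replicates B, D and E. All 4 AM6545 libraries lay below all 3 vehicle libraries. The vehicle libraries spread 1.87-fold, and the AM6545 libraries 1.05-fold. The log2 fold change was -0.58 ± 0.17 (SE), with an edgeR p of 0.00617 that did not pass after adjustment (adjusted p 0.227). With the GC and length correction it was -0.42 ± 0.17 (edgeR adjusted p 0.729), and the groups then overlapped. Without vehicle replicate B it was -0.27 (edgeR adjusted p 0.722), and without vehicle replicate E it was -0.75 and passed (edgeR adjusted p 0.0239). The share of all genes that passed in that last setting is not given here, so the pass is not read as particular to Nrxn2.

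Nrxn2 transcripts are the richest in GC of the 9 genes, at 63.3%. The 152 tested genes within 1 percentage point of that GC content had a median log2 fold change of -0.23, in the same direction as Nrxn2. The part of GC content and of vehicle replicate B in the Nrxn2 difference was not tested beyond these values. Exons of Nrxn2 share 682 bases with Slc22a12 on the opposite strand, and the strand setting of the counting is not given in the sources used here.

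Nrxn3 (ENSMUSG00000066392.13, chr12:88722876-90334935, plus strand) had CPM of 133, 134, 158 and 147 in AM6545 replicates B, D, E and F. In vehicle replicates B, D and E it had 179, 145 and 137. The groups overlapped, and the log2 fold change was -0.11 ± 0.11 (SE; edgeR adjusted p 0.674), an interval of -0.33 to 0.12 at 2 SE, and -0.07 with the GC and length correction. Without vehicle replicate B it was 0.02. The summed CPM of the 2 neurexins was 179 ± 12.3 (SD, n = 4) after AM6545 and 207 ± 39.9 (SD, n = 3) after vehicle, again overlapping.

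Among the postsynaptic neuroligins, Nlgn2 (ENSMUSG00000051790.16, chr11:69823122-69837784, minus strand) had the lowest fold change of the 9 genes and the widest spread. Its CPM was 24.1, 26.1, 24.4 and 26.7 in AM6545 replicates B, D, E and F, and 71.9, 39.6 and 23.6 in vehicle replicates B, D and E. Vehicle replicate E lay below every AM6545 library, so the groups overlapped, and the vehicle libraries spread 3.04-fold. The log2 fold change was -0.84 ± 0.30 (SE; edgeR p 0.0206, adjusted p 0.269) and -0.71 ± 0.29 with the GC and length correction. Without vehicle replicate B it was -0.33 (edgeR p 0.0921), and without vehicle replicate E it was -1.14 and passed (edgeR adjusted p 0.0214). As for Nrxn2, that pass has no share of all genes to be set against. Nlgn2 transcripts hold 59.1% GC, and the 903 tested genes within 1 percentage point had a median log2 fold change of -0.13.

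The same vehicle libraries were high for both genes. Vehicle replicate B was the highest of all 7 libraries for Nrxn2 and for Nlgn2, vehicle replicate D was second, and vehicle replicate E was nearest to the AM6545 libraries.

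Nlgn1 (ENSMUSG00000063887.14, chr3:25426215-26332460, minus strand) had CPM of 52.3, 63.2, 72.1 and 63.7 in AM6545 replicates B, D, E and F. It had 66.7, 53.1 and 53.8 in vehicle replicates B, D and E. AM6545 replicate B was the lowest of all and vehicle replicate B the second highest, so the groups were mixed (log2 fold change 0.12 ± 0.13 (SE), edgeR adjusted p 0.677). The interval at 2 SE was -0.14 to 0.37, and the corrected value was 0.07.

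Nlgn3 (ENSMUSG00000031302.17, chrX:101299168-101325963, plus strand) had CPM of 112, 113, 136 and 112 in AM6545 replicates B, D, E and F. It had 136, 122 and 111 in vehicle replicates B, D and E. AM6545 replicate E and vehicle replicate B were equally high, and the other 5 libraries lay within 111 to 122. The log2 fold change was -0.05 ± 0.11 (SE; edgeR adjusted p 0.837) and 0.05 ± 0.09 with the GC and length correction, so its sign depended on that correction. It was 0.03 without vehicle replicate B. Nlgn3 shares 3823 exon bases with Gm21986 on the same strand, a gene that was not analysed here, so reads of the 2 cannot be told apart. For the 3 neuroligins together, summed CPM was 206 ± 18.7 (SD, n = 4) after AM6545 and 226 ± 44.3 (SD, n = 3) after vehicle, with overlap.

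None of the 4 LRRTM genes reached an unadjusted p under 0.05 in the edgeR test. Lrrtm1 (ENSMUSG00000060780.3, chr6:77242689-77257791, plus strand) had CPM of 230, 219, 230 and 216 in AM6545 replicates B, D, E and F and 261, 229 and 228 in vehicle replicates B, D and E. Vehicle replicate B was the high library, and the other 6 lay within 216 to 230 (log2 fold change -0.10 ± 0.09 (SE), edgeR adjusted p 0.63; -0.07 with the GC and length correction).

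Lrrtm2 (ENSMUSG00000071862.4, chr18:35209003-35215024, minus strand), a partner of neurexins that lack the splice site 4 insert, ranged from 24.7 to 36.4 CPM after AM6545 and from 24.1 to 29.9 after vehicle. Its log2 fold change was 0.06 ± 0.14 (SE; edgeR adjusted p 0.856) and -0.10 with the GC and length correction. Lrrtm4 (ENSMUSG00000052581.14, chr6:80018877-80810143, plus strand), which also binds heparan sulphate chains and is known from dentate granule cells, ranged from 30.7 to 43.1 CPM after AM6545 and from 27.4 to 36.6 after vehicle. Its log2 fold change was 0.13 ± 0.14 (SE; edgeR adjusted p 0.674) and -0.09 with the correction. For both genes the groups overlapped and the sign depended on the correction.

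Lrrtm3 (ENSMUSG00000042846.9, chr10:63928472-64090277, minus strand) had CPM of 21.9, 24.0, 32.3 and 22.0 in AM6545 replicates B, D, E and F. Its vehicle libraries agreed closely, at 26.9, 26.5 and 26.4. The AM6545 libraries lay on both sides of them, 3 below and replicate E above. The log2 fold change was -0.09 ± 0.14 (SE; edgeR adjusted p 0.782), and -0.28 ± 0.13 with the GC and length correction (edgeR p 0.0467, adjusted p 0.73). Summed CPM of the 4 LRRTM genes was 313 ± 20.3 (SD, n = 4) after AM6545 and 326 ± 16.3 (SD, n = 3) after vehicle.

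**Figure D2:**
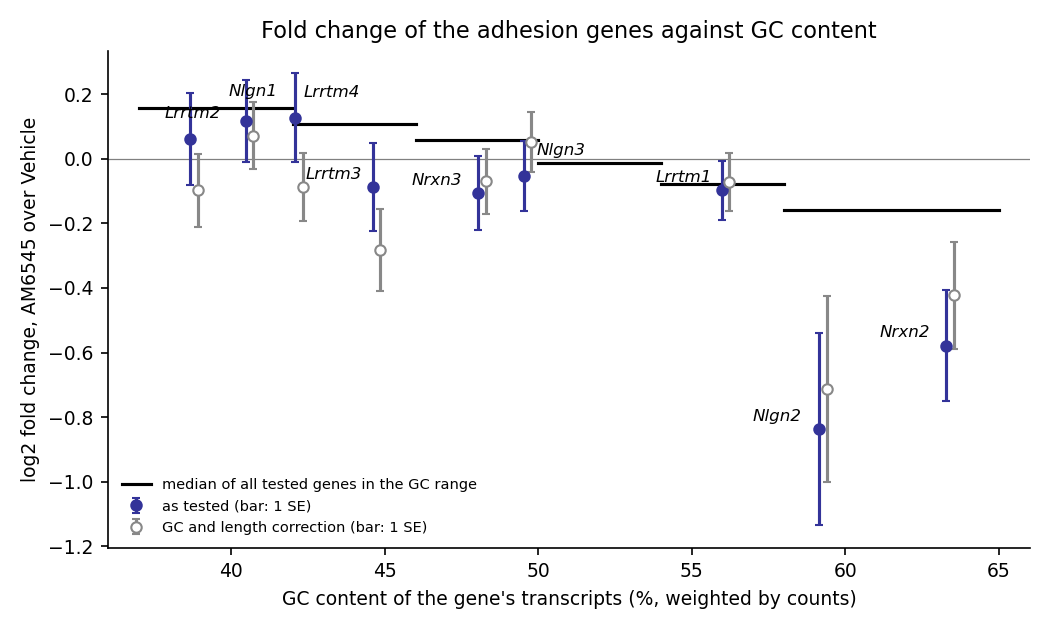
Log2 fold change of each adhesion gene (AM6545 over vehicle, bars of 1 SE) against the GC content of its transcripts, as tested (filled) and with the GC and length correction (open, moved slightly to the right), with black lines at the median of all tested genes in 6 GC ranges. The medians go from 0.16 in the lowest GC range to -0.16 in the highest. As tested, Nlgn2 and Nrxn2 lie furthest below that trend, and every other gene except Lrrtm4 lies below the median of its range as well.

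Levels between genes can be set side by side only per length. The length-scaled level is counts divided by transcript length, scaled so that all genes of a library sum to 1000000. By this measure Lrrtm1 was the most abundant, at 171 ± 5.72 (SD, n = 7), followed by Nrxn3 at 43.4 ± 3.75. Lrrtm1 lay 3.94-fold above Nrxn3, and the ranges of these 2 genes did not overlap over the 7 libraries. Nlgn3 came next at 31.1 ± 3.29 and did not overlap with Nrxn3 either.

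From Nlgn3 downwards every pair of neighbours in the order overlapped. Nrxn2 had a level of 30.7 ± 10.3 (SD, n = 7), Lrrtm4 20.5 ± 3.81, Nlgn1 20.4 ± 3.93 and Lrrtm3 12.8 ± 2.06. Nlgn2 at 12.5 ± 5.49 and Lrrtm2 at 10.8 ± 2.31 were the least abundant. Lrrtm1 stood at the 95.6th percentile of all genes with annotated transcripts in the data and Lrrtm2 at the 63.6th. That set includes genes with few or no counts that were not tested, which raises these percentiles. By group means, Nrxn2 lay below Nlgn3 after AM6545 and above it after vehicle. Nrxn2 had 24.1 ± 1.32 (SD, n = 4) after AM6545 and 39.4 ± 10.7 (SD, n = 3) after vehicle. Nlgn3 had 32.3 ± 4.05 and 29.6 ± 1.30. In vehicle replicates B, D and E, Nrxn2 had 51.1, 37.3 and 29.9. Its mean lay below that of Nrxn3 in both groups (44.5 ± 4.76 and 41.9 ± 1.52). The length-scaled level of Nlgn1 was 18.5, 21.9, 28.3 and 21.5 in AM6545 replicates B, D, E and F and 18.1, 17.8 and 17.0 in vehicle replicates B, D and E. On this scale the Nlgn1 groups did not overlap, while its CPM did, and the length-scaled difference was not tested.

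**Figure D3:**
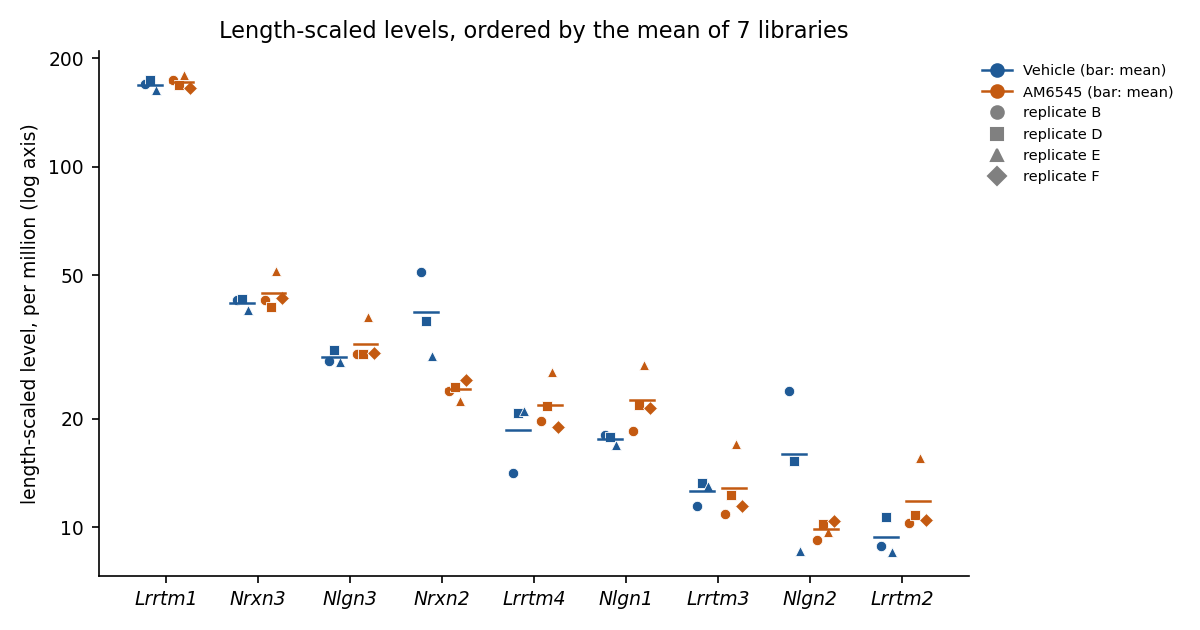
Length-scaled level (libraries summing to 1000000, log axis) of the 9 adhesion genes in each library, ordered by the mean of 7 libraries, with bars at the group means. Lrrtm1 lies between 163 and 180 in every library, clear of all other genes, and Nrxn2 and Nlgn2 show the widest ranges.

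Of the 50 transcripts with counts, 35 passed the low-count filter and were tested. None passed after adjustment in the edgeR test, and 0.0177% of all transcripts tested did. At an unadjusted edgeR p under 0.05 there were 7 of 35 (20%), against 8.39% of all transcripts. The groups did not overlap for 6 of 35 (17.1%), against 10.8%. The 7 are Nlgn3-202 and Nlgn3-206, Nlgn1-203, Nrxn2-202 and Nrxn2-213, Nrxn3-201 and Lrrtm1-201, and transcripts of 1 gene share reads and are not independent. How reads divide among transcripts of a gene is an estimate of the quantifier.

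A test of transcript usage, edgeR's comparison of the share of each transcript within its gene, called 1 of the 9 genes, Nlgn3 (adjusted p 3.45e-08). Of all genes tested for usage, 0.713% were called. On simulated data most calls of this usage test were false, so the call is to be read with that limit. Of the Nlgn3 transcripts, Nlgn3-202 had the smallest p in the test of single transcripts. It had estimated counts of 648, 236 and 314 in vehicle replicates B, D and E, which is 19.2, 7.84 and 15.4% of the Nlgn3 transcript counts. It was listed at 0 in all 4 AM6545 libraries. For counting error alone, that allows a share of up to 0.116% in AM6545 replicate B, which had the fewest Nlgn3 counts of them.

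The vehicle mean of Nlgn3-202 was 137-fold above a floor of 3 counts per library, a floor that covers counting error only. The edgeR test of this transcript gave a p of 0.000132 (adjusted p 0.186; 0.176 with the GC and length correction). It passed in DESeq2 (adjusted p 6.04e-19) and in edgeR without a low-count filter (adjusted p 0.0436). Over the 19 settings run, its highest adjusted p was 0.975 (edgeR). Nlgn3-202 shares 7962 of its 8004 bases with the main form, Nlgn3-201, which leaves 42 bases of its own. A value of 0 in estimated counts can be a failed estimate, and this was not tested. The fold above the floor therefore sets no lower bound on the change. Its coding sequence is 2133 bases against 2475 in Nlgn3-201, 342 fewer, or 114 residues.

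The other Nlgn3 forms did not show such a split. Nlgn3-201 took 84.1, 85.2, 82.3 and 90.3% of the counts in AM6545 replicates B, D, E and F, and 75.9, 85.9 and 73.1% in vehicle replicates B, D and E. The shares of Nlgn3-201 overlapped, and its log2 fold change was 0.07 ± 0.12 (SE; edgeR adjusted p 0.905), or 0.17 with the GC and length correction and -0.05 without vehicle replicate E. Nlgn3-206, which holds both 60-base exons, took 10.7, 10.7, 12.3 and 4.97% after AM6545 and 2.70, 3.24 and 6.30% after vehicle. AM6545 replicate F lay inside the vehicle range and the other 3 lay above it (log2 fold change 1.26 ± 0.41 (SE), edgeR p 0.018, adjusted p 0.559; 1.34 corrected).

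**Figure D4:**
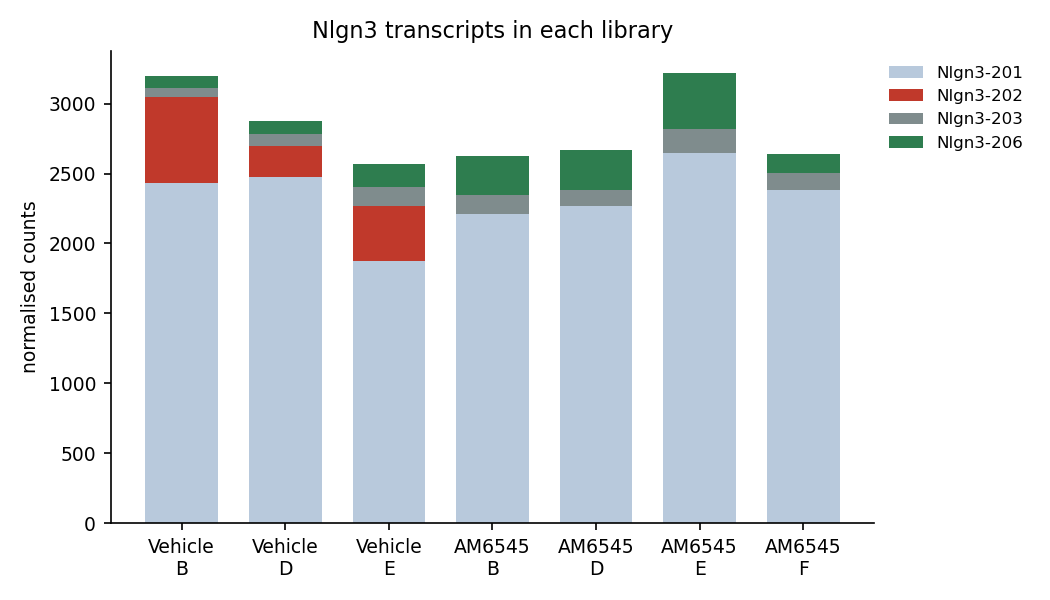
Normalised counts of the 4 Nlgn3 transcripts with counts, stacked for each library. Nlgn3-202 appears in the 3 vehicle libraries and in none of the 4 AM6545 libraries, while the height of the whole stack overlaps between the groups.

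For the classes of forms, 16 shares were compared with an exact permutation test (two-sided, all 35 assignments of 4 and 3), whose smallest possible p is 0.0286. None passed after adjustment (smallest adjusted p 0.152), and in 4 of 16 the groups did not overlap. A matching share over all genes is not given here, so the 4 are not read as a result about these genes. Shares of 1 gene come from the same few annotated transcripts and are not independent. Unless stated, they are shares of counts not scaled by transcript length. Longer forms weigh more in them, so they are not shares of molecules. The widest 95% Wilson interval of a single library's share reached 5.46 percentage points to either side.

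Alpha forms took 49.7, 46.6, 49.9 and 45.4% of Nrxn2 transcript counts in AM6545 replicates B, D, E and F, and 32.5, 39.6 and 41.2% in vehicle replicates B, D and E. Every AM6545 library lay above every vehicle library, by 10.2 percentage points on average (exact permutation p 0.0286, adjusted p 0.152). Beta forms took 40.5, 44.9, 42.6 and 42.7% against 54.6, 47.6 and 45.1%. AM6545 was lower in beta share without overlap, with a difference of -6.42 percentage points (exact permutation p 0.0286). With counts scaled by transcript length the alpha difference was 9.03 points and the beta difference turned to 1.77 points higher, so the direction for beta depended on that choice.

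The main beta form, Nrxn2-202, had normalised counts (counts divided by the library's relative effective size) of 327, 378, 368 and 342 in AM6545 replicates B, D, E and F and of 939, 525 and 411 in vehicle replicates B, D and E, without overlap (log2 fold change -0.82 ± 0.27 (SE), edgeR p 0.0186, adjusted p 0.559). Its fold change was -0.71 with the GC and length correction and -0.40 without vehicle replicate B. The main alpha form, Nrxn2-204, had 231, 247, 224 and 252 against 348, 281 and 234, with overlap (log2 fold change -0.27 ± 0.16 (SE), edgeR adjusted p 0.687). For Nrxn2-204 the corrected value was -0.05, and without vehicle replicate B it was -0.11. Nrxn2-213, a short transcript without a coding sequence, had 63.3, 52.2, 36.7 and 71.5 against 188, 117 and 99.2. Its groups did not overlap either (log2 fold change -1.27 ± 0.32 (SE), edgeR p 0.0051, adjusted p 0.559; -0.88 corrected).

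Protein-coding transcripts took 88.1 to 92.8% of Nrxn2 counts after AM6545 and 86.7 to 87.4% after vehicle, without overlap (exact permutation p 0.0571). Shares of the Nrxn2 cassette exons of 24, 27 and 72 bases overlapped between the groups, and the last 2 are read from the same transcripts.

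By coding length Nrxn3 was mostly alpha, with 88.2 to 93.1% of counts after AM6545 and 91.7 to 92.3% after vehicle (exact permutation p 0.229). That class includes Nrxn3-208 and Nrxn3-213, annotated as nonsense-mediated decay. Protein-coding transcripts took 78.3 to 79.3% of Nrxn3 counts after AM6545 and 75.7 to 85.2% after vehicle (exact permutation p 0.314). Nrxn3-208 took 11.3 to 13.8% and 9.78 to 10.6%, without overlap (log2 fold change 0.22 ± 0.16 (SE), edgeR adjusted p 0.745, or 0.27 corrected). Beta forms of Nrxn3 took 6.01 to 10.5% and 6.67 to 7.61%. The 90-base exon was present in 91.0 to 94.8% of the Nrxn3 counts that can be read for it after AM6545 and in 92.3 to 94.4% after vehicle (difference -0.49 percentage points, exact permutation p 0.686). Only 1 annotated coding transcript of Nrxn3 skips it, the beta form Nrxn3-203. At 2699 bases, Nrxn3-203 is shorter than Nrxn3-205, the main form with the exon, at 7922. By counts the forms with the exon therefore weigh more, and a length-scaled share is not given here.

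A 27-base exon of Nrxn3 was included in 7.06, 8.29, 7.57 and 7.35% of counts in AM6545 replicates B, D, E and F and in 3.72, 5.49 and 6.04% in vehicle replicates B, D and E. All AM6545 libraries were higher, by 2.48 percentage points on average (exact permutation p 0.0286, adjusted p 0.152). It is read from Nrxn3-201, whose log2 fold change was 0.44 ± 0.15 (SE; edgeR p 0.0221, adjusted p 0.559) and 0.37 with the GC and length correction.

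In the neuroligins, the 60-base exon of Nlgn1 was present in 64.4, 69.5, 57.5 and 58.2% of counts in AM6545 replicates B, D, E and F and in 66.5, 59.0 and 63.2% in vehicle replicates B, D and E. The groups were mixed (difference -0.50 percentage points, exact permutation p 0.914). Nlgn1-201 and Nlgn1-205, which hold the exon, are 4359 and 11807 bases long. Nlgn1-202 and Nlgn1-203, which lack it, have 4272 and 3013. Forms with the exon therefore weigh more in this count share, and a length-scaled share is not given here. Nlgn1-203, one of the forms without the inserts, took 12.7, 11.1, 18.9 and 8.29% of Nlgn1 counts after AM6545 and 0.63, 4.05 and 8.12% after vehicle, without overlap (log2 fold change 1.84 ± 0.75 (SE), edgeR p 0.0442, adjusted p 0.582; 1.72 corrected). Its partner without inserts, Nlgn1-202, has a coding sequence of the same length, 2442 bases, and took 19.4 to 33.5% against 28.5 to 36.9%.

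The first 60-base exon of Nlgn3 was included in 11.3, 11.1, 13.0 and 5.22% of counts after AM6545 and 2.76, 3.34 and 6.65% after vehicle (difference 5.91 percentage points, exact permutation p 0.0857). AM6545 replicate F was the library that overlapped. The second 60-base exon was included in 93.8 to 95.3% after AM6545 and 94.4 to 97.8% after vehicle (exact permutation p 0.114). That share is read against Nlgn3-203, which skips the exon, and leaves out Nlgn3-206, where a different exon lies before it. Nlgn3-203 is 1852 bases long against 8465 in Nlgn3-201, so here too the forms with the exon weigh more by counts.

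**Figure D5:**
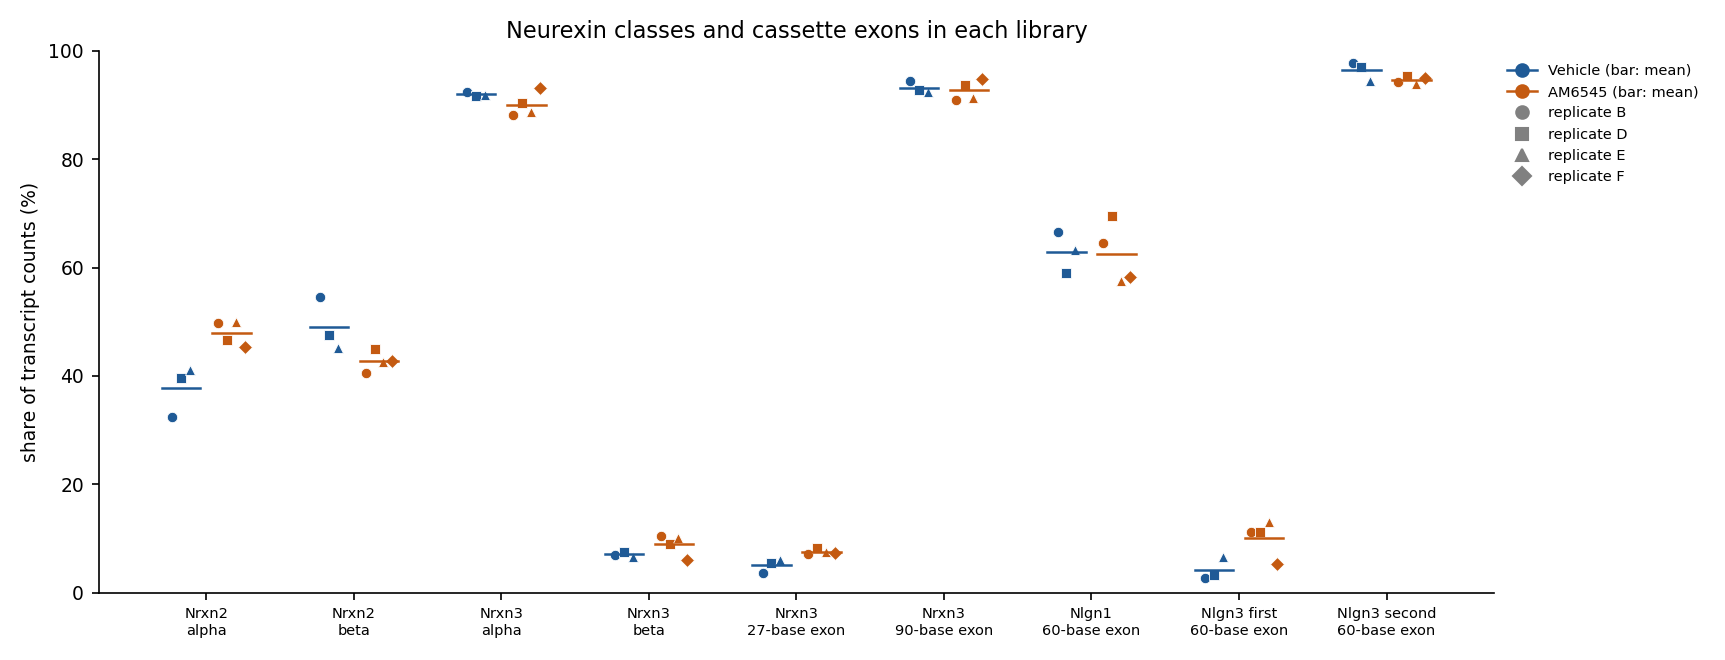
Share of transcript counts (percent of the counts that can be read for each class) for alpha and beta neurexins and for cassette exons, with 1 point per library and bars at the group means. The groups separate for Nrxn2 alpha and beta forms and for the 27-base exon of Nrxn3, and they overlap for the 90-base and 60-base exons.

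The Lrrtm genes have few forms. Protein-coding transcripts, chiefly Lrrtm1-202 and Lrrtm1-203, took 92.8 to 93.8% of Lrrtm1 counts after AM6545 and 91.8 to 92.8% after vehicle (exact permutation p 0.0857). The remaining form, Lrrtm1-201, had normalised counts of 357, 332, 335 and 363 in AM6545 replicates B, D, E and F and 503, 387 and 411 in vehicle replicates B, D and E, without overlap (log2 fold change -0.32 ± 0.12 (SE), edgeR p 0.0311, adjusted p 0.569). The corrected value was -0.35, and without vehicle replicate B it was -0.20. Lrrtm4 divided into Lrrtm4-201, with 52.1 to 60.4% after AM6545 and 51.2 to 55.7% after vehicle, and Lrrtm4-208, with 34.0 to 45.2% and 39.6 to 44.97%. Their ranges overlapped.

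Other genes of the same adhesion system were read from 10 lists with 97 genes, all tested. None passed in the edgeR test. At an unadjusted p under 0.05 there were 20 (20.6%), 3 higher and 17 lower, against 14.6% of all genes in either direction and 8.7% lower. Each list count below is to be read against these shares, and no list was tested. The median log2 fold change of the 97 was -0.03 against 0.01 for all genes. Without vehicle replicate E, 16 of the 97 passed. The share of all genes that passed in that setting is not given here, so the 16 are not read as a result about the lists. By sign alone, 40 were higher and 57 lower after AM6545.

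Of 8 secreted organisers that bind neurexins, 7 were lower by sign and 3 at an unadjusted p, and C1ql3, a C1q-like organiser, had 21.2 ± 0.81 CPM (SD, n = 4) against 26.2 ± 1.78 (SD, n = 3; log2 fold change -0.30, edgeR adjusted p 0.243; -0.32 corrected). Of 14 genes listed as binders or associated proteins of neuroligins and LRRTMs, 5 were lower at an unadjusted p. They include the postsynaptic scaffolds Shank1 (log2 fold change -0.77 ± 0.16 (SE), edgeR adjusted p 0.199; -0.38 with the GC and length correction) and Shank3 (-0.82 ± 0.22, edgeR adjusted p 0.205; -0.50 with it). Iqsec3, a gephyrin-binding protein of inhibitory synapses, had -0.52 ± 0.17 (SE; edgeR adjusted p 0.236; -0.32 corrected).

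Of 10 intracellular binders of neurexins, 1 was higher and 1 lower at an unadjusted p. Lin7c, a PDZ protein of the CASK complex, had a log2 fold change of 0.38 ± 0.10 (SE; edgeR adjusted p 0.199) and 0.15 with the correction. Its paralog Lin7b had -0.37 ± 0.13 (SE; edgeR adjusted p 0.261) and 0.10 with the correction, a change of sign. Among 11 splicing regulators, Ptbp2, a repressor of neuronal exons, was higher at an unadjusted p (log2 fold change 0.37 ± 0.12 (SE), edgeR adjusted p 0.243; 0.15 corrected). Nova2 was lower (-0.34 ± 0.16 (SE), edgeR adjusted p 0.338; -0.11 corrected).

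Of 20 other postsynaptic adhesion proteins 3 were lower at an unadjusted p, among them Lrrc4b (log2 fold change -0.78 ± 0.22 (SE), edgeR adjusted p 0.22; -0.61 corrected), a ligand of LAR-type phosphatases. Of 10 latrophilins, teneurins and FLRTs 2 were lower, with the latrophilin Adgrl1 at -0.60 ± 0.17 (SE; edgeR adjusted p 0.212; -0.32 corrected). Of 4 SynCAM proteins 1 was lower. Of 10 proteases that cut neurexins or neuroligins 1 was higher, Adam10 (0.33 ± 0.12 (SE), edgeR adjusted p 0.266; 0.14 corrected), and 1 was lower, Psen2 (-0.32 ± 0.11 (SE), edgeR adjusted p 0.261; -0.22 corrected). None of the 3 LAR-type phosphatases and none of the 7 neuroligin and glypican regulators reached an unadjusted p under 0.05.

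The labelled tissue was checked against markers of its cell types, and all listed markers that were analysed had counts. Summed CPM of 5 excitatory neuron markers was 3833 to 4164 after AM6545 and 4180 to 4967 after vehicle, without overlap. None of the 5 genes separated the groups alone, and Neurod6 was higher by sign. Nrgn and Grin2b were lower at an unadjusted edgeR p, 2 of 5 against 8.7% of all genes. With the GC and length correction their log2 fold changes went from -0.37 to -0.17 and from -0.35 to -0.13. For 3 CA1 markers summed CPM was 524 to 603.2 and 603.7 to 629, without overlap by a narrow gap. Interneuron markers (632 to 727 and 651 to 724), oligodendrocyte markers (17117 to 20216 and 16810 to 23049) and microglial markers (608 to 651 and 610 to 802) overlapped. So did astrocyte markers (2249 to 2577 and 2285 to 2775) and oligodendrocyte precursor markers (27.9 to 34.7 and 31.1 to 38.7). Within these lists, 1 of 6 interneuron genes, Sst, was lower at an unadjusted edgeR p (log2 fold change -0.41, or -0.001 corrected). So were 1 of 6 astrocyte genes, Slc1a2 (-0.45, or -0.33 corrected), and 1 of 2 precursor genes, Cspg4 (-0.47, or -0.29 corrected). Of the 7 microglial genes 4 were lower at an unadjusted p, against 8.7% of all genes. Their log2 fold changes shrank with the GC and length correction, from -0.47 to -0.14 for C1qa, -0.45 to -0.17 for C1qb, -0.65 to -0.19 for Tyrobp and -0.22 to -0.11 for Tmem119. The other microglial genes did not go with them: Cx3cr1 (0.04) and P2ry12 (0.07) were higher by sign, and Csf1r was at -0.04. Choroid plexus markers had 401 to 1928 and 1546 to 2762. The part of these differences in the values of the adhesion genes was not tested, and fewer synaptic particles of a cell type and less RNA in each cannot be told apart in such bulk libraries.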

How the data were processed

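The authors deposited estimated counts per gene and per transcript, 1 column for each of 7 libraries, not scaled to a common total. Salmon 1.5.2 and the build mm10 are named in the submitters' processing notes. Per the labels' protocols, an RNeasy kit gave total RNA and a SMARTer Ultra Low Input kit gave the libraries. Annotation release and strand setting are not given in the sources used here. Names, transcript structures, lengths, GC content and sequences were taken from GENCODE M21 on GRCm38, in which 22194 gene identifiers were found. For 22181 of these the deposited identifier has a higher version, so structures used for counting may differ. The Nrxn3 gene count exceeds the sum of its matched transcripts by up to 247 counts.

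Estimated counts were rounded and tested with edgeR 4.0.16 (R 4.3.3; quasi-likelihood, TMM scaling, filterByExpr, robust fit, no covariates), with Benjamini-Hochberg adjustment over all genes or transcripts tested. CPM values were computed with TMM scaling. SE was approximated as |log2 fold change| over the root of edgeR's F. Alpha forms have an annotated coding sequence of at least 3000 bases; beta forms have 900 to 2500 bases and a first coding exon of their own. Cassette exons were read where both forms averaged at least 20 counts. Transcripts were named if they took at least 10% of their gene's counts in a group or had an unadjusted p under 0.05, and up to 3 partner genes per list by smallest p plus the most abundant one were eligible. The GC and length correction was a lowess fit per library (span 0.3) used as offsets. Alternatives were other scalings, DESeq2 1.42.0, limma-voom (limma 3.58.1), other filters, the replicate letter as a block, and leaving out each library. The code was tested on simulated data, where most calls of the usage test were false. Intervals and floors cover counting error only. The genes and lists were chosen with earlier results of these data known. Meg3 and Malat1 were not analysed here. One class of Nrxn2 forms entered the counts of shares but is not reported here.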

Additional observations from a re-analysis of the deposited data

Results flagged for a closer look

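In the AM6545 group, replicate E stood away from the other libraries for Nlgn3, with 136 CPM against 112 to 113 in replicates B, D and F. The vehicle libraries ran from 111 to 136, so the value lies at the top of the vehicle range. This was 1 of 50 items checked, and chance flags about 5% of such items.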

How the results depend on the processing

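No adhesion gene passed in the test as reported or in any other setting, except that leaving out single libraries gave 0 to 2 genes, with 2 (Nrxn2 and Nlgn2) without vehicle replicate E. Among transcripts, Nlgn3-202 alone passed in DESeq2 (1) and without a low-count filter (1). The count of genes with a changed transcript usage was 1, Nlgn3, in every setting run. On simulated data, however, most calls of the usage test were false. Shares whose groups did not overlap numbered 4, and 4 to 10 when single libraries were left out, with 10 without AM6545 replicate F and 8 without vehicle replicate E. With fewer libraries, groups separate more often by chance. These counts do not allow for that, and no matching share over all genes is given beside them. Partner genes past the threshold numbered 0 to 16 when single libraries were left out, with 16 without vehicle replicate E. Shares of all genes past the threshold without single libraries are not given here, so these counts cannot be set against them. The cause of these shifts was not tested.

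The replicate letters are shared between the groups, but libraries of the same letter did not deviate together (r of -0.26, -0.13 and -0.18 over genes for B, D and E), so they are not treated as pairs. With the letter as a block, 0 genes and 0 transcripts passed, 1 gene was called for usage, and 12 of 16 shares had all 3 letters on one side. With only 3 letters this is not rare by chance, and shares of 1 gene are not independent. AM6545 replicate F has no partner letter and adds nothing to that fit. Depth limits single-library shares most for the cassette exons of Nrxn2, with intervals up to 5.46 percentage points to either side, and 4 against 3 libraries limit every p from permutations to 0.0286.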
